A study of Sus scrofa with 15 samples.

Results

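Of 13503 genes tested in sow mammary tissue, 45 (0.333%) had a similar mean level at 14 and 2 d before parturition and stood at least 4-fold higher 1 d after it. They included C3, the central protein of the complement cascade, CD14, a receptor for bacterial lipopolysaccharide, the chemokine CXCL2, the acute phase transcription factor CEBPD and the matricellular protein CCN2. The genes were chosen from the normalised read counts themselves. The mean at 2 d prepartum had to lie within 0.67 to 1.5 times the mean at 14 d prepartum, the mean at 1 d postpartum had to be at least 4 times that at 2 d prepartum, all 3 postpartum values had to exceed all 12 prepartum values, and the highest mean had to reach 5 CPM (counts per 1000000 of the scaled library size). The +1vs-2, +1vs-14 and -2vs-14 time comparisons of these 45 genes are therefore given as a description, with no test. The tables list 25322 Ensembl genes, and 32 of the 45 could be named.

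Mammary biopsies were taken from the same 3 sows at 14, 10, 6 and 2 d before and 1 d after parturition, which gave 15 messenger RNA libraries, 3 per time point. The animals were crossbred sows (Danish Landrace × Yorkshire) in their 2nd parity, chosen for a high colostrum yield, and no 2 of them shared a diet, which leaves the effects of diet and animal inseparable. By the gestation days given in the paper, the diets were allotted after the biopsies of 14 d prepartum, so that diet and time cannot be fully separated either. The sows were anaesthetised for each biopsy and received Banamine after it and on the following days. Each had been biopsied at all earlier time points, and at 1 d postpartum they were suckled by their piglets. Parturition and suckling both separate the last time point from the others, which also stands last in the order of biopsies, and these cannot be told apart. Values are listed throughout in the order sow 1, sow 2, sow 3, and their spread is the SD of the 3 libraries of a time point. The sow of a library is not in the sample labels and was taken from the study's alignment summary through the exact total count.

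In late pregnancy the mammary epithelium of the sow accumulates colostrum, and around farrowing it turns to copious secretion while the litter begins to suckle and the teat canal is open to bacteria. Milk contains complement proteins, soluble CD14 and other proteins of innate defence, part of which the epithelium makes itself. An acute phase response, in liver and in epithelia, is switched on by cytokines and bacterial products through transcription factors such as C/EBPδ, STAT3 and NF-κB, and its products include complement, metallothioneins and chemokines.

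Total counts per library ran from 10782343 to 19952918. At 1 d postpartum 1 library stood apart from the others in the share of its counts on few genes. Replicate 37 (sow 1) had 53.8% of its counts on its 10 highest genes, against 30.5% and 33.6% in replicates 40 and 43 (sows 2 and 3), and its TMM factor, which corrects the library size for such composition, was 0.545 against 0.884 and 0.870. CSN2, which encodes β-casein, stood at 248107, 20610.1 and 58105 CPM in these 3 libraries. Ratios without replicate 37 are given for some of the genes, and the number of genes meeting the conditions is given without it too. Without TMM the median log2 change of all tested genes from 2 d prepartum to 1 d postpartum was -0.23, against 0.02 with it. The 13 epithelial markers used to check the tissue label were all tested, and KRT8 and KRT18 were present in all groups. The sum of the 13 markers fell in sow 2 from 100423 CPM at 2 d prepartum to 23483 CPM at 1 d postpartum, and rose in sows 1 and 3. Which of the postpartum libraries is typical of that time was not tested. In bulk tissue, more cells of a type and more RNA per cell cannot be told apart.

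The 45 genes together made up 590.2 CPM at 2 d prepartum and 7872 CPM at 1 d postpartum, summed over their means. At 14 d prepartum the sum was 598.2 CPM. Their ratio of the mean at 1 d postpartum to the mean at 2 d prepartum ran from 4.02 (MAP3K8) to 90.2 (MT1X), with a median of 6.84. With replicate 37 left out the median ratio was 8.25, and without replicates 40 or 43 it was 7.15 or 5.45. Under the 9 other settings run for this value (other scalings, thinned counts, each library of these 2 time points left out) the log2 ratio ran from 1.61 to 7.72. A ratio above 1 without a library is fixed by the choice of the genes. With replicate 37 left out of the choice itself, 90 genes met the conditions, 38 of them among the 45, and without TMM 30 genes did, 17 of them among the 45. As a background, all 3 postpartum values exceeded all 12 prepartum values in 7.91% of tested genes, a mean at least 4 times that of 2 d prepartum was found in 1.43%, and 83.6% had a ratio of 2 d over 14 d prepartum within the limits.

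**Figure D1:**
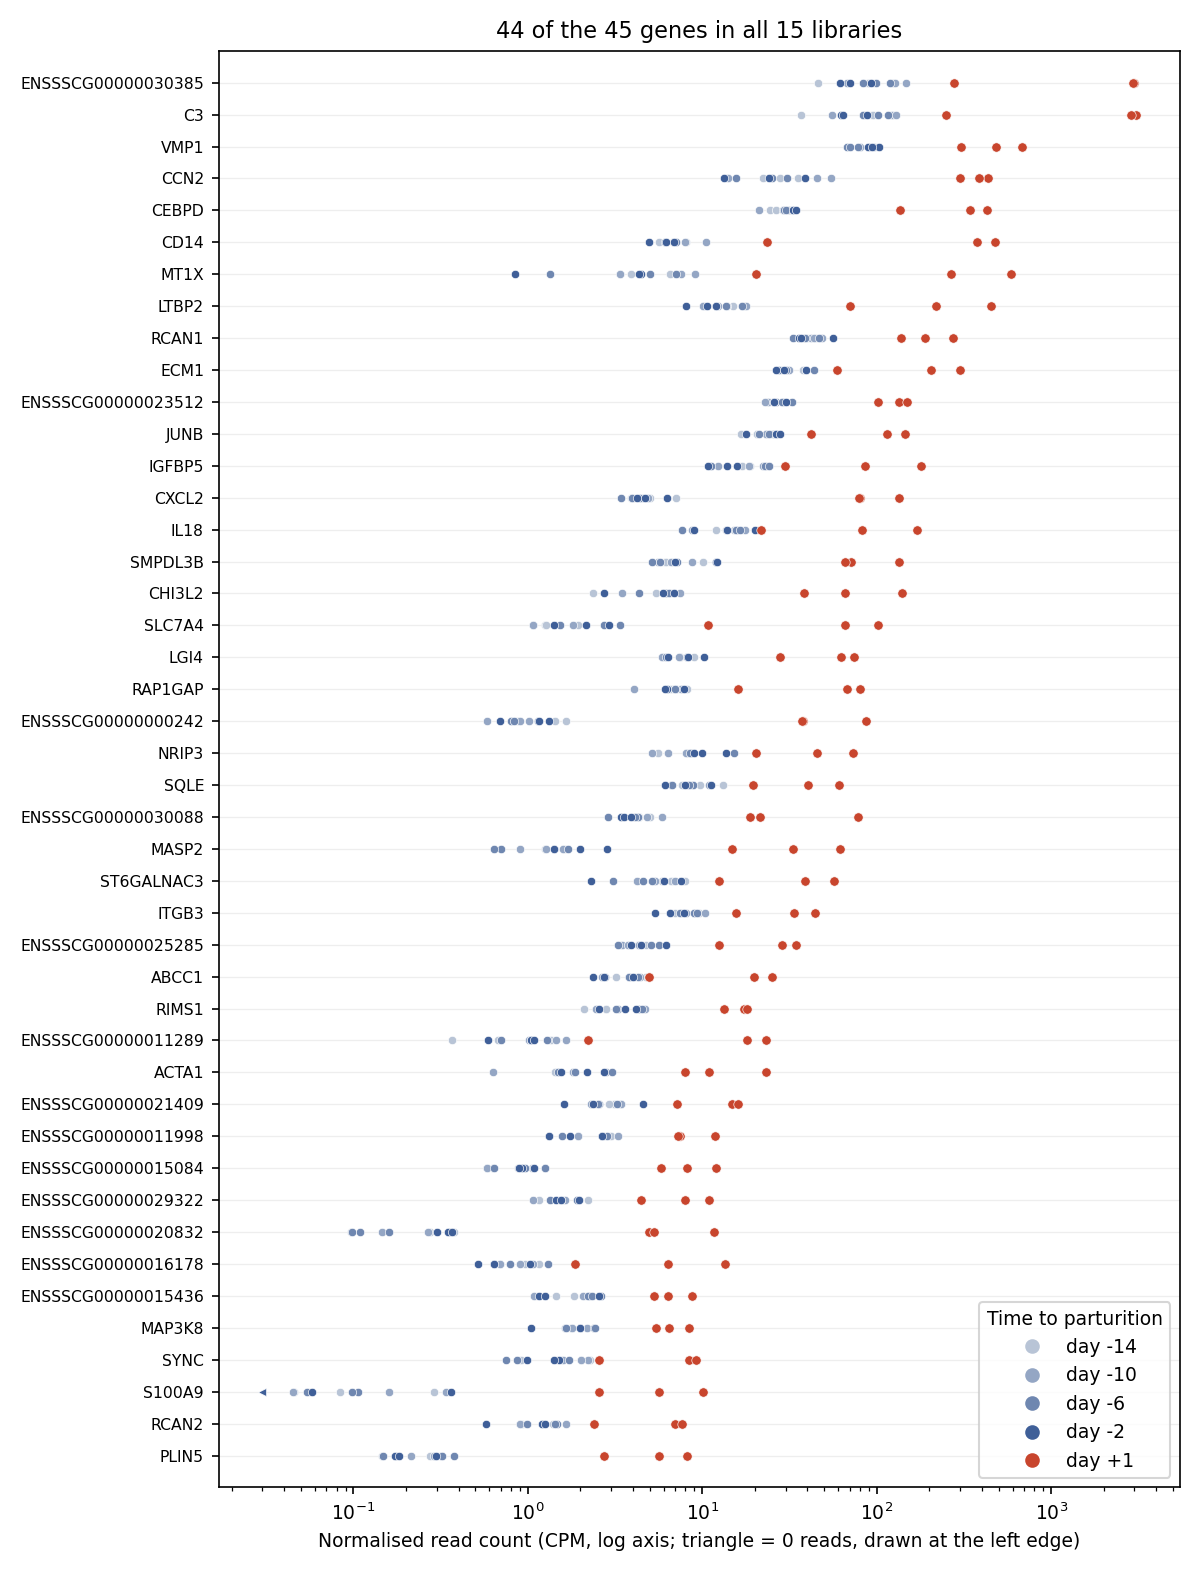
Normalised read count in CPM (log axis) of 44 of the 45 genes, sorted by their mean at day +1; each point is 1 of 15 libraries, coloured by time point. The 3 red points of day +1 lie to the right of the 12 prepartum points in every row, as the choice of genes requires, and in 32 of the 44 rows the leftmost red point is replicate 37.

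**Figure D2:**
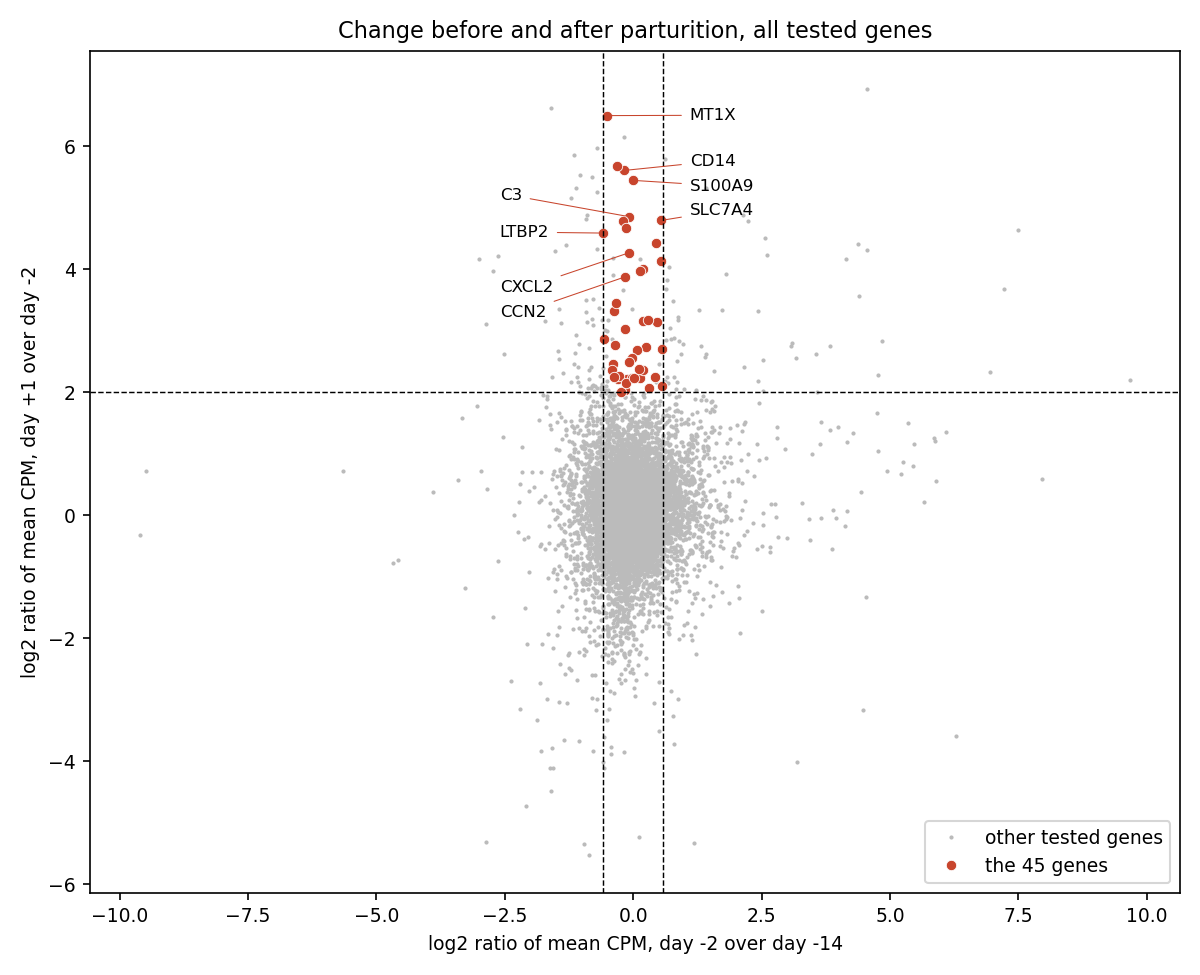
Change before parturition (log2 ratio of mean CPM, day -2 over day -14, x axis) and after it (log2 ratio of mean CPM, day +1 over day -2, y axis) for all tested genes with a mean above 0 at these time points; dashed lines mark the limits of 0.67, 1.5 and 4. The 45 genes (red) fill the central column above the horizontal line, with MT1X on top; grey points in that area failed the condition on overlap or on level.

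C3 reached 2.86, 49.3 and 44.7 times its value of 2 d prepartum in sows 1, 2 and 3. C3 read 93.5, 36.8 and 95.6 CPM at 14 d prepartum, 122.8, 55.0 and 129 CPM at 10 d, 117, 83.4 and 101 CPM at 6 d, 87.4, 62.2 and 63.8 CPM at 2 d and 250.2, 3063 and 2848 CPM at 1 d postpartum. The 2 high libraries were those of sows 2 and 3, and the sow 1 library was far lower, yet above every prepartum library. The mean went from 71.1 ± 14.1 CPM at 2 d prepartum to 2054 ± 1566 CPM (SD, n = 3), a ratio of 28.9, or 41.6 without replicate 37. C3 lies at chr2:72761363-72787995, plus strand, 38 listed exons (Sscrofa10.2). The unnamed gene ENSSSCG00000030385, at chr2:72950402-72957974, minus strand, 13 listed exons, is 162407 bases away and had nearly the same values in each library. ENSSSCG00000030385 read 124, 45.7 and 89.1 CPM at 14 d prepartum, 127, 67.1 and 146 CPM at 10 d, 119, 83.8 and 98.7 CPM at 6 d, 93.2, 61.9 and 70.4 CPM at 2 d and 276, 2989.8 and 2931 CPM at 1 d postpartum. Its raw count divided by that of C3 was between 0.932 and 1.32 in all 15 libraries, so that both entries carry the same pattern; whether they are parts of the same transcript was not tested.

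MASP2, a serine protease that starts the lectin pathway of complement, ranged over the 12 prepartum libraries from 0.640 to 2.84 CPM and reached 14.8, 61.9 and 33.1 CPM at 1 d postpartum, a ratio of 17.6 (11.5 without replicate 40). Per kilobase of exon, which allows levels of different genes to be set side by side, C3 stood at 552 CPM at 1 d postpartum and MASP2 at 19.99. The other complement genes given here, like all family members and partners named beside the 45, were chosen after the 45 were known and are listed as values with no test. CFB, the factor B of the alternative pathway, had 7.15, 28.5 and 63.7 CPM at 1 d postpartum and a highest prepartum value of 9.12 CPM, so that sow 1 overlapped the earlier libraries. CFI, which encodes the protease that inactivates C3b, was at 19.9 ± 1.47 CPM at 2 d prepartum and 62.3 ± 35.0 CPM at 1 d postpartum. Its lowest postpartum value, 22.5 CPM, lay below its highest prepartum value of 34.6 CPM. C5 was at 0.838 ± 0.378 CPM at 2 d prepartum and 1.23 ± 0.246 CPM at 1 d postpartum. MASP1, the partner protease of MASP2, had 1.503 ± 0.215 CPM at 2 d prepartum and 2.66 ± 1.104 CPM at 1 d postpartum. The postpartum values of C5 and MASP1 overlapped the prepartum ones too.

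CD14, the co-receptor that hands lipopolysaccharide to TLR4, was low and even before parturition. CD14 stood at 5.64, 6.79 and 8.05 CPM at 14 d prepartum, 6.18, 7.98 and 10.46 CPM at 10 d, 6.12, 6.93 and 7.04 CPM at 6 d, 4.98, 6.17 and 6.86 CPM at 2 d and 23.3, 474 and 377 CPM at 1 d postpartum. Sows 2 and 3 ended far above sow 1, which itself lay above all 12 prepartum libraries. The mean moved from 6.00 ± 0.956 to 292 ± 237 CPM, a ratio of 48.6 (70.9 without replicate 37). The gene lies at chr2:148291451-148293622, minus strand, 1 listed exon. Its partners in the receptor complex missed the set on different conditions. LY96 (MD-2), which binds the lipid part of lipopolysaccharide, went from 5.01 ± 0.590 to 30.04 ± 21.5 CPM and missed the set because 5.79 CPM in sow 1 lay below the highest prepartum value of 6.39. TLR4, the signalling receptor itself, was at 22.3, 47.4 and 30.5 CPM at 1 d postpartum, above all prepartum libraries but 1.96 times its level at 2 d prepartum. LBP, the serum and milk protein that delivers lipopolysaccharide to CD14, had a higher mean earlier, with 9.50 CPM at 14 d, 222 CPM at 2 d prepartum and 4406 CPM at 1 d postpartum.

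Among secreted signals, CXCL2, a chemokine that attracts neutrophils, had the widest gap between prepartum and postpartum libraries among the named genes. CXCL2 measured 7.06, 5.03 and 3.88 CPM at 14 d prepartum, 4.55, 4.89 and 3.97 CPM at 10 d, 3.95, 3.41 and 4.38 CPM at 6 d, 4.69, 4.24 and 6.27 CPM at 2 d and 134, 79.7 and 78.7 CPM at 1 d postpartum. Here sow 1 was the highest, in contrast to C3 and CD14. The lowest postpartum value was 11.1 times the highest prepartum value. The ratio of means was 19.3 (5.07 ± 1.07 to 97.6 ± 31.8 CPM), or 15.6 without replicate 37. IL18, a cytokine of the interleukin-1 family, showed the opposite arrangement. IL18 had 13.7, 15.1 and 11.98 CPM at 14 d prepartum, 15.9, 17.7 and 8.71 CPM at 10 d, 15.6, 16.4 and 7.64 CPM at 6 d, 13.8, 20.1 and 9.01 CPM at 2 d and 21.6, 82.6 and 170.3 CPM at 1 d postpartum. In sow 1 it lay just above the highest prepartum value of 20.1 CPM, and sow 3 carried the highest level. Its mean was 91.5 ± 74.7 CPM after 14.3 ± 5.56 CPM, a ratio of 6.40, or 3.65 without replicate 43.

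S100A9, a calcium-binding protein abundant in neutrophils, was close to undetectable before parturition. S100A9 had 0.0458, 0.0838 and 0.291 CPM at 14 d prepartum, 0.0451, 0.160 and 0.339 CPM at 10 d, 0.0541, 0.107 and 0.0985 CPM at 6 d, 0.0579, 0.363 and 0 CPM at 2 d and 2.55, 10.1 and 5.63 CPM at 1 d postpartum. The 3 libraries of 2 d prepartum held 7 reads in all and those of 1 d postpartum 194, which gives a pooled rate ratio of 44.3 with a 95% interval for counting error of 21.1 to 112. Of those 7 reads 6 were in replicate 31 (sow 2), and without it the pooled rate ratio rested on 1 read at 2 d prepartum and was 202 (95% interval for counting error 35.8 to 8012). CHI3L2, a chitinase-like secreted protein, rose in every sow, as the choice of genes requires. CHI3L2 was at 6.46, 2.35 and 5.43 CPM at 14 d prepartum, 6.22, 3.46 and 7.46 CPM at 10 d, 6.17, 4.32 and 6.45 CPM at 6 d, 6.89, 2.72 and 5.98 CPM at 2 d and 38.5, 139 and 65.9 CPM at 1 d postpartum. Sow 2 had both its lowest prepartum and its highest postpartum values. The ratio of means was 15.6, from 5.196 ± 2.19 to 81.1 ± 51.9 CPM, and 10.0 without replicate 40. ECM1, a secreted glycoprotein of the extracellular matrix, followed the order of IL18 among the sows. ECM1 stood at 27.9, 30.98 and 37.5 CPM at 14 d prepartum, 31.4, 27.1 and 39.1 CPM at 10 d, 27.5, 29.99 and 43.8 CPM at 6 d, 26.3, 29.5 and 39.4 CPM at 2 d and 59.4, 203 and 299 CPM at 1 d postpartum.

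CEBPD, which encodes C/EBPδ, stood at 197 CPM per kilobase of exon at 1 d postpartum and JUNB, a subunit of the AP-1 factor, at 53.4. CEBPD read 24.3, 26.3 and 30.9 CPM at 14 d prepartum, 21.1, 29.1 and 31.4 CPM at 10 d, 29.8, 29.5 and 30.2 CPM at 6 d, 33.2, 32.9 and 34.2 CPM at 2 d and 136, 430.2 and 343 CPM at 1 d postpartum. The prepartum values were all within 21.1 to 34.2 CPM, and the 3 libraries of 2 d prepartum differed little. Its mean rose to 303 ± 151 CPM, a ratio of 9.06, and the gene was kept in the set when any 1 of the 15 libraries was left out. CEBPA, its family member, had 18.5 ± 5.68 CPM at 2 d prepartum and 9.09 ± 3.10 CPM at 1 d postpartum. JUNB measured 20.6, 20.5 and 16.6 CPM at 14 d prepartum, 23.3, 23.2 and 25.3 CPM at 10 d, 21.2, 24.2 and 26.4 CPM at 6 d, 26.4, 27.7 and 17.8 CPM at 2 d and 41.9, 115 and 145 CPM at 1 d postpartum. Sow 1 reached 1.59 times its own value of 2 d prepartum, whereas sow 3 reached 8.13 times. The ratio of means of JUNB was 4.19. Without replicates 34, 40 or 43 it was 3.71, 3.89 or 3.27, each below the limit of 4. FOS, which pairs with JUNB, was at 22.8, 50.3 and 32.3 CPM at 1 d postpartum against 3.07 ± 0.956 CPM at 2 d prepartum; it is not in the set because its level had dropped to 0.578 times that of 14 d prepartum by then.

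RCAN1 and RCAN2, regulators of the phosphatase calcineurin, were both in the set. RCAN1 stood at 43.9, 39.95 and 47.3 CPM at 14 d prepartum, 41.8, 48.4 and 43.5 CPM at 10 d, 33.0, 46.6 and 38.8 CPM at 6 d, 35.9, 56.1 and 36.6 CPM at 2 d and 273, 138 and 189 CPM at 1 d postpartum. Its highest value was in sow 1 and its lowest in sow 2. The ratio of means of RCAN1 was 4.66, or 3.81 without replicate 37, which is below the limit of 4. RCAN2 was low, with 0.579 to 1.65 CPM in the prepartum libraries and 2.38, 6.94 and 7.68 CPM at 1 d postpartum. Their family member RCAN3 was at 16.2 ± 1.22 CPM at 2 d prepartum and 21.7 ± 4.42 CPM at 1 d postpartum. MAP3K8, a kinase that links Toll-like receptors to the ERK cascade, passed the limit by the smallest margin of the named genes, with 6.47, 8.33 and 5.41 CPM after 1.68 ± 0.551 CPM, a ratio of 4.02.

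CCN2, also called connective tissue growth factor, differed little between sows after parturition. CCN2 read 35.2, 27.8 and 22.3 CPM at 14 d prepartum, 54.8, 45.7 and 13.9 CPM at 10 d, 15.6, 30.7 and 25.2 CPM at 6 d, 13.3, 38.9 and 24.2 CPM at 2 d and 434, 384 and 302 CPM at 1 d postpartum. The postpartum libraries spanned 1.44-fold, against 12.2-fold for C3. The ratio of means of CCN2 was 14.7 (25.5 ± 12.9 to 373 ± 66.9 CPM), or 13.5 without replicate 37. Its relative CCN1 (CYR61) was at 12.2 ± 6.14 CPM at 2 d prepartum and 51.5 ± 24.5 CPM at 1 d postpartum, and missed the set because its level at 2 d prepartum was 0.653 times that of 14 d. LTBP2, a microfibril protein of the latent TGF-β binding protein family, sat at the lower limit of that same condition, at 0.6701. LTBP2 had 14.9, 13.9 and 17.1 CPM at 14 d prepartum, 10.1, 12.2 and 17.7 CPM at 10 d, 11.9, 13.7 and 16.8 CPM at 6 d, 8.10, 10.7 and 12.03 CPM at 2 d and 70.1, 218 and 451 CPM at 1 d postpartum. It rose in the order sow 1, sow 2, sow 3, and its ratio of means was 24.0, or 14.0 without replicate 43. LTBP1 was at 54.9 ± 15.2 CPM at 2 d prepartum and 49.9 ± 8.81 CPM at 1 d postpartum and LTBP3 at 101 ± 5.86 CPM at 2 d prepartum and 199 ± 81.7 CPM at 1 d postpartum. The lowest postpartum value of LTBP3, 105 CPM, lay below its highest prepartum value of 132 CPM.

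ITGB3, an integrin β subunit that pairs with αv, reached 33.5, 15.7 and 44.2 CPM after 6.58 ± 1.246 CPM. The ratio of means of ITGB3 was 4.73, or 3.74 without replicate 43. Its partner ITGAV was at 89.4 ± 10.1 CPM at 2 d prepartum and 151 ± 21.4 CPM at 1 d postpartum. IGFBP5, which binds insulin-like growth factors and is known from the involuting rodent gland, rose least in sow 1, by 2.15 times. IGFBP5 measured 18.8, 16.9 and 24.1 CPM at 14 d prepartum, 22.2, 12.3 and 18.6 CPM at 10 d, 22.9, 11.2 and 24.1 CPM at 6 d, 13.8, 10.8 and 15.7 CPM at 2 d and 29.6, 85.1 and 179 CPM at 1 d postpartum. The ratio of means was 7.28, or 4.27 without replicate 43. IGFBP4 was at 49.5 ± 1.13 CPM at 2 d prepartum and 52.2 ± 11.2 CPM at 1 d postpartum and IGFBP6 at 10.6 ± 1.66 CPM at 2 d prepartum and 13.7 ± 3.57 CPM at 1 d postpartum.

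MT1X, a metallothionein that binds zinc and copper, had the highest ratio of the 45 genes when all libraries were used. MT1X read 6.55, 3.35 and 3.88 CPM at 14 d prepartum, 9.06, 3.35 and 7.55 CPM at 10 d, 7.04, 1.33 and 5.03 CPM at 6 d, 4.46, 0.847 and 4.35 CPM at 2 d and 20.3, 586 and 265 CPM at 1 d postpartum. Sow 2 had the lowest prepartum and the highest postpartum values. The ratio of means was 90.2, from 3.22 ± 2.05 to 290.3 ± 284 CPM, and 132 without replicate 37. It rested on replicate 40, without which the ratio was 44.2, below that of ENSSSCG00000000242 at 58.8, and without replicate 31 S100A9 had the highest ratio. Metallothioneins form a family of near-identical short genes (421 exon bases here), so that the assignment of reads to this copy is uncertain. Per kilobase of exon it stood at 689 CPM at 1 d postpartum, between ENSSSCG00000030385 (1312) and C3 (552), followed by CEBPD (197), CCN2 (157) and CD14 (134).

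VMP1, a membrane protein of the endoplasmic reticulum needed for autophagy, rose by 3.44, 6.56 and 5.12 times within sows 1, 2 and 3. VMP1 stood at 79.4, 90.8 and 79.5 CPM at 14 d prepartum, 80.6, 96.3 and 79.7 CPM at 10 d, 67.2, 78.2 and 70.6 CPM at 6 d, 88.6, 103 and 93.8 CPM at 2 d and 305, 678 and 479.9 CPM at 1 d postpartum. Sow 2 had the highest postpartum value and sow 1 the lowest. SMPDL3B, a membrane-anchored sphingomyelin phosphodiesterase-like protein, was highest in sow 3. SMPDL3B had 6.10, 10.1 and 6.16 CPM at 14 d prepartum, 8.70, 6.65 and 5.57 CPM at 10 d, 5.74, 7.14 and 5.12 CPM at 6 d, 11.9, 12.1 and 7.01 CPM at 2 d and 71.5, 66.0 and 135 CPM at 1 d postpartum. SLC7A4, a member of the cationic amino acid transporter family, was low before parturition. SLC7A4 measured 1.92, 1.26 and 1.26 CPM at 14 d prepartum, 1.80, 1.06 and 1.07 CPM at 10 d, 3.36, 2.72 and 1.53 CPM at 6 d, 2.14, 2.91 and 1.40 CPM at 2 d and 10.7, 65.7 and 102 CPM at 1 d postpartum. Its ratio of means was 27.7 (17.8 without replicate 43), with 5.01, 22.6 and 72.7 within sows 1, 2 and 3.

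SQLE, which encodes squalene epoxidase of cholesterol synthesis, was the 1 gene of that pathway in the set. SQLE read 7.65, 13.1 and 9.65 CPM at 14 d prepartum, 10.9, 6.65 and 8.42 CPM at 10 d, 8.88, 6.66 and 8.38 CPM at 6 d, 11.2, 7.99 and 6.13 CPM at 2 d and 61.1, 19.5 and 40.4 CPM at 1 d postpartum. Sow 1 was highest and sow 2 lowest, as for HMGCS1, the synthase at the entry of the pathway, with 2499, 188 and 502 CPM at 1 d postpartum. The ratio of means of SQLE was 4.79, or 3.55 without replicate 37, which is below the limit of 4. PLIN5, a coat protein of lipid droplets, had 0.146 to 0.379 CPM before parturition and 2.72, 8.13 and 5.63 CPM after it, on 10 reads at 2 d prepartum and 175 at 1 d postpartum (pooled rate ratio 27.96, 95% interval for counting error 14.8 to 59.3). ENSSSCG00000012006 came closest to overlap of the named genes. The study's supplementary table alone names it ABCC1, an efflux transporter, and that name was not checked. Its 4.94 CPM in sow 1 at 1 d postpartum was 1.03 times its highest prepartum value of 4.78 CPM.

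The remaining named genes belong to several functions. LGI4 stood at 8.94, 5.91 and 5.97 CPM at 14 d prepartum, 7.48, 5.85 and 7.36 CPM at 10 d, 8.12, 8.20 and 6.21 CPM at 6 d, 8.27, 10.23 and 6.35 CPM at 2 d and 27.7, 62.5 and 74.3 CPM at 1 d postpartum. This gene encodes a secreted protein known from the myelination of peripheral nerves. RAP1GAP had 7.56, 6.62 and 8.20 CPM at 14 d prepartum, 7.08, 4.04 and 7.55 CPM at 10 d, 6.17, 6.93 and 6.95 CPM at 6 d, 6.25, 7.81 and 6.13 CPM at 2 d and 16.001, 80.3 and 67.6 CPM at 1 d postpartum. It encodes a GTPase-activating protein for Rap1. NRIP3 (nuclear receptor-interacting protein 3) sat just inside the upper limit of the flat range, at 1.49. Its ratio of means from 2 d prepartum to 1 d postpartum was 4.29, or 3.05 without replicate 40. NRIP3 was at 8.11, 5.53 and 8.15 CPM at 14 d prepartum, 8.02, 6.38 and 5.13 CPM at 10 d, 15.2, 8.58 and 8.52 CPM at 6 d, 9.89, 8.90 and 13.6 CPM at 2 d and 20.3, 73.1 and 45.6 CPM at 1 d postpartum. ST6GALNAC3, a sialyltransferase, reached 57.0, 12.5 and 39.0 CPM with sow 2 lowest, and RIMS1, a scaffold protein of presynaptic active zones, 13.3, 17.4 and 18.1 CPM with little spread between sows. SYNC, which encodes the intermediate filament protein syncoilin, reached 2.55, 8.33 and 9.14 CPM.

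ACTA1, the skeletal muscle actin, was the 1 muscle marker in the set. ACTA1 measured 1.47, 1.43 and 1.504 CPM at 14 d prepartum, 2.79, 1.81 and 0.629 CPM at 10 d, 3.03, 1.86 and 1.48 CPM at 6 d, 2.72, 2.18 and 1.55 CPM at 2 d and 8.0005, 10.9 and 23.1 CPM at 1 d postpartum. The 4 remaining markers of that list, all tested, summed to between 8.19 and 13.1 CPM at 2 d prepartum and to between 41.2 and 92.3 CPM at 1 d postpartum, and 2 of the 4 (MYH1 and ACTC1) were called higher. The part of muscle tissue in the ACTA1 value was not tested, and reads shared between the near-identical actins ACTA1 and ACTC1 make both uncertain.

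Of the 13 genes without a name, ENSSSCG00000030385 and ENSSSCG00000023512 had the highest mean CPM at 1 d postpartum, not corrected for length. The second of them lies at chr16:77761983-77799297, plus strand, 10 listed exons. ENSSSCG00000023512 stood at 23.6, 24.0 and 26.5 CPM at 14 d prepartum, 29.3, 23.9 and 22.8 CPM at 10 d, 32.5, 26.3 and 28.5 CPM at 6 d, 25.8, 30.3 and 25.6 CPM at 2 d and 102, 133 and 148 CPM at 1 d postpartum. It was among the most even of the set, with a postpartum spread of 1.46-fold and all 3 sows between 3.94 and 5.78 times their own value of 2 d prepartum. The other 11 had means at 1 d postpartum between 6.77 and 54.1 CPM and ratios between 4.10 and 51.2. Leaving out 1 library moved the ratio by over 1.5 times for 2 of them, ENSSSCG00000030088 (10.9, or 5.52 without replicate 37) and ENSSSCG00000016178 (9.93, or 5.65 without replicate 43).

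The size of the rise differed between sows. Within sow 1 the ratio of 1 d postpartum to 2 d prepartum had a median of 4.31 over the 45 genes, within sow 2 of 6.83 and within sow 3 of 11.03. A ratio of at least 4 was found for 25 genes in sow 1, 39 in sow 2 and 42 in sow 3, and for 18 genes in all 3. The highest postpartum library was 3.17 times the lowest at the median over the set, against 1.43 times for the other tested genes at 5 CPM or more at that time. Replicate 37 of sow 1 was the lowest library for 33 of the 45 (73.3%), against 39.8% of those other genes. Among the 1036 genes outside the set that passed as higher in +1vs-2 (edgeR, criteria below) the share was 59.8%. The number among the 45 was 33 with RLE size factors and 37 without TMM. Replicate 37 was the highest library for 8 genes, namely CCN2, CXCL2, RCAN1, SQLE, ST6GALNAC3 and the unnamed ENSSSCG00000000242, ENSSSCG00000030088 and ENSSSCG00000015436. With RLE size factors it was the highest for 8 genes as well, but without TMM for 3. With TMM, 2 patterns thus run side by side in the set, low in sow 1 as for C3, CD14 and MT1X, and high in sow 1 as for CXCL2 and CCN2. The number of genes in the second pattern depends on the scaling, and CCN2 was not highest in sow 1 without TMM. The raw counts of CCN2 were 2551, 3873 and 4127, in libraries with total counts of 10782343, 11416874 and 15744454. The differences between sows rest on 1 library each and were not tested.

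**Figure D3:**
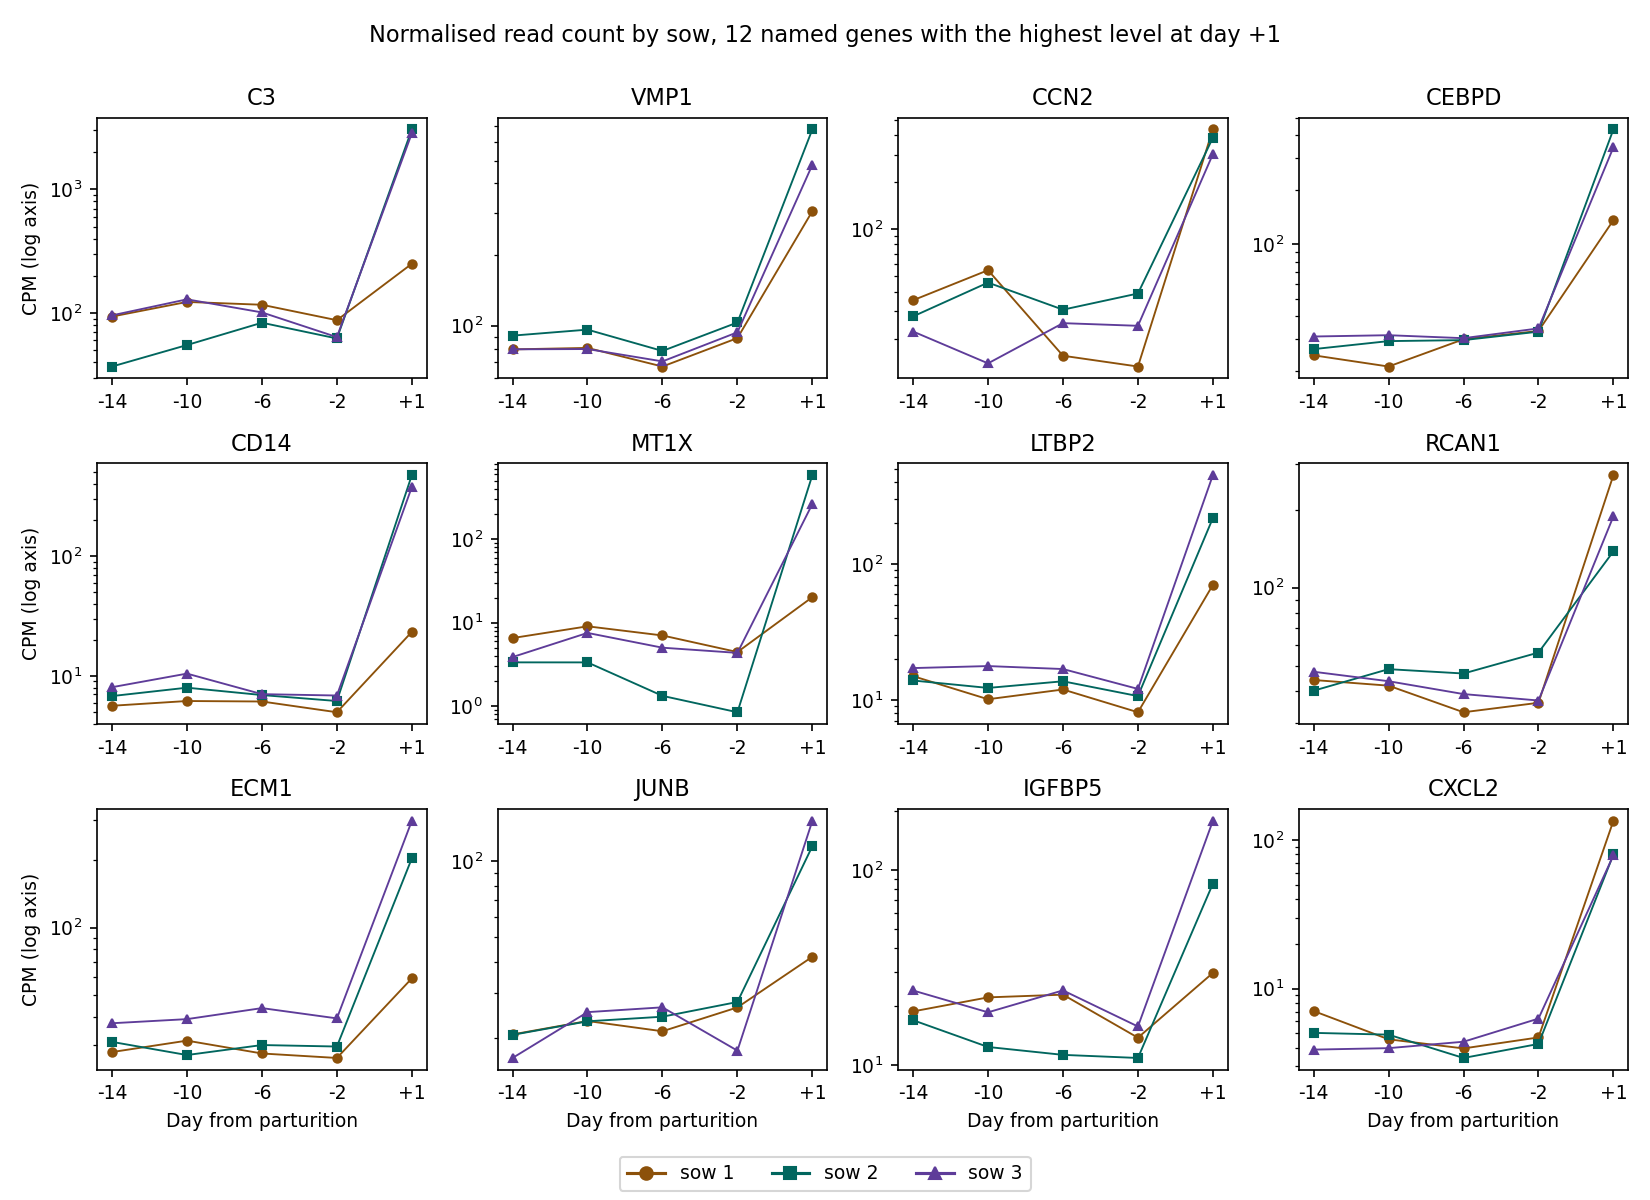
CPM (log axis, scaled per panel) at the 5 time points for the 12 named genes with the highest mean at day +1; each line is 1 of the 3 sows, each point 1 library. Every line is highest at day +1, above all its prepartum points, as the choice of genes requires. With TMM, sow 1 ends lowest for C3, CD14 and MT1X (250, 23.3 and 20.3 CPM) and highest for CCN2, RCAN1 and CXCL2 (434, 273 and 134 CPM).

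**Figure D4:**
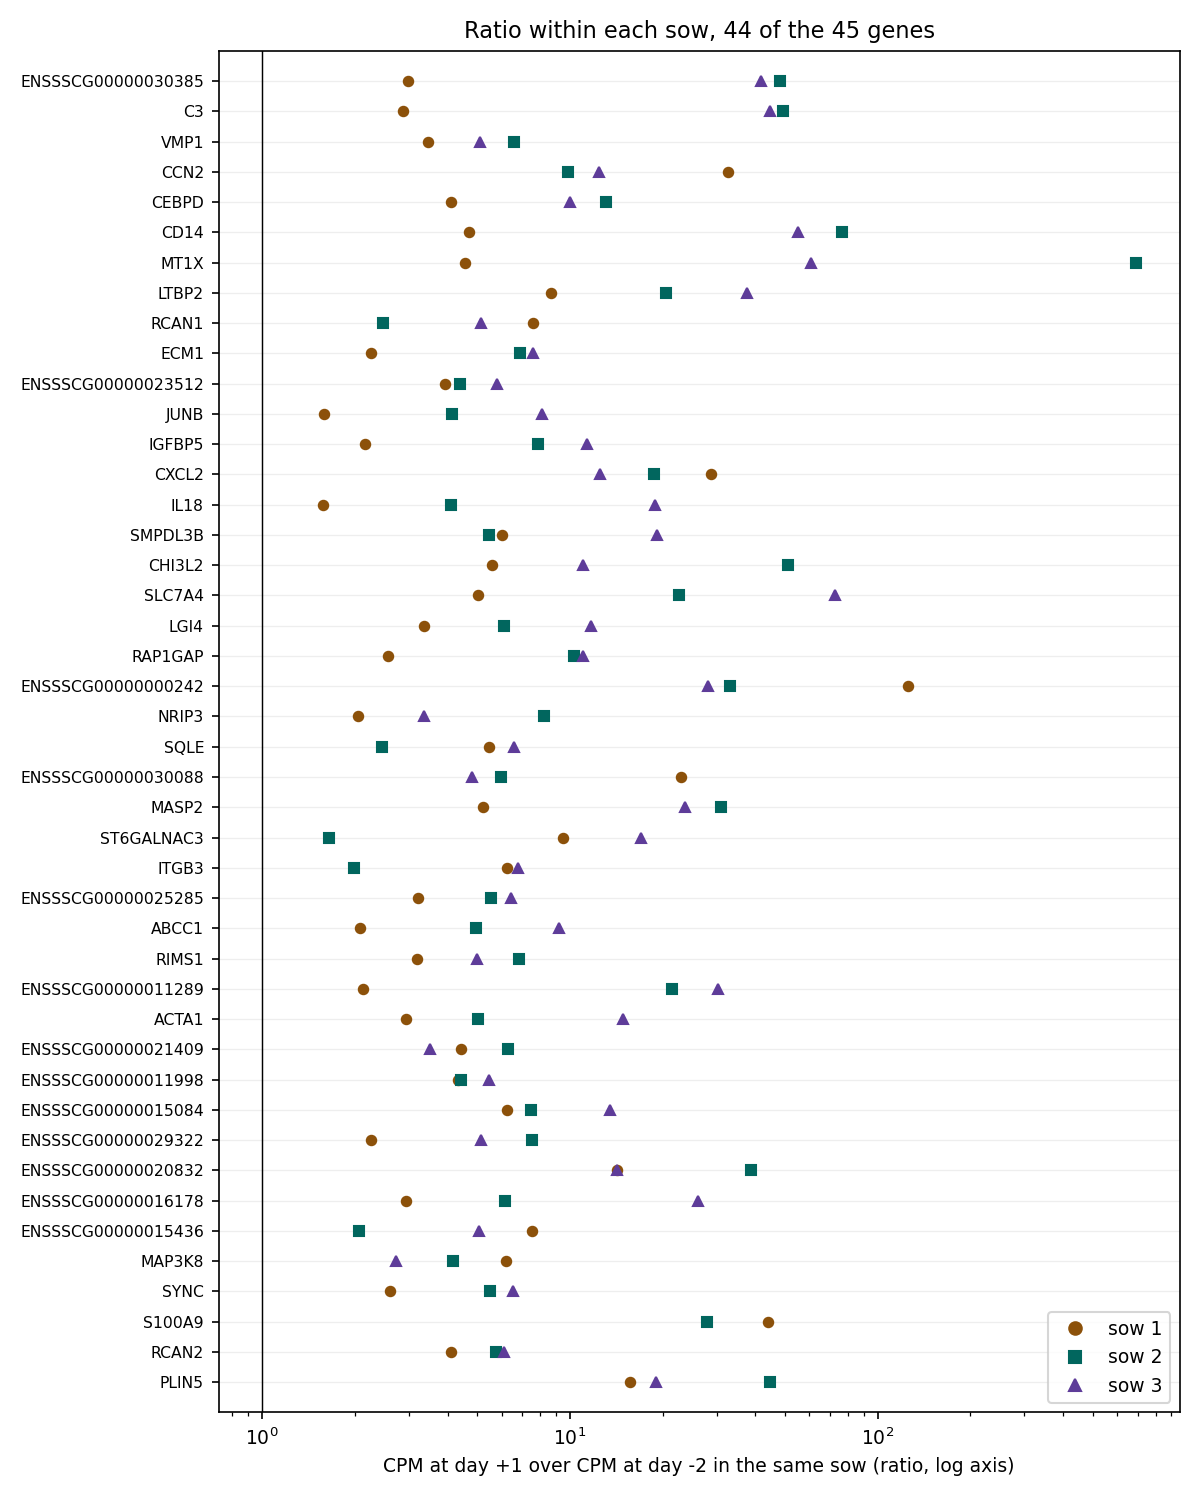
Ratio of CPM at day +1 to CPM at day -2 within each sow (log axis; the vertical line marks 1) for 44 of the 45 genes, sorted by mean level at day +1. All points lie above 1, as the choice of genes requires. S100A9 has no point for sow 3, which had 0 reads at day -2, and the sow medians over the 45 are 4.31, 6.83 and 11.03.

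Among the prepartum times, edgeR was run over all tested genes in 3 comparisons that the ratios of the choice did not use. The choice still bears on them, since it used the means at 14 d and required every value at 14, 10 and 6 d to lie below those of 1 d postpartum, so nothing about the set is read from the counts. In -10vs-14, -6vs-14 and -6vs-10 none of the 45 genes was a differentially expressed gene (DEG), which required an adjusted p of 0.05 or less both for time overall and for the comparison. No tested gene was (0% in each comparison). At an unadjusted p of 0.05 or less, 0 of the 45 passed in -10vs-14 (2.19% of all tested genes), 1 in -6vs-14 (8.81%) and 0 in -6vs-10 (7.06%). That gene was RIMS1, with a log2 fold change of 0.65 at 6 d prepartum (SE 0.26, adjusted p = 0.5002 from edgeR). The log2 fold changes of the set ran from -0.67 to 0.78 in -10vs-14, with a median of 0.02, and from -1.02 to 0.77 in -6vs-14, with a median of -0.03, beside 0.00 in both comparisons over all genes. DESeq2, edgeR blocked by sow and limma-voom (sow as random term) called none of the 45 in any of the 3 comparisons either. Of all tested genes these tools called 0% in -10vs-14. In -6vs-14 they called 0.904%, 0.467% and 0.17%, and in -6vs-10 0.207%, 0.00741% and 0%, in the same order. In 31 of the 45 genes the 4 prepartum means lay within 1.5 times of each other (68.9%). The share was 77.3% of the other tested genes and 85.0% of those at 5 CPM or more at 1 d postpartum. The choice of the 45 bears on their share too, since it limited the ratio of 2 d over 14 d prepartum.

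The set was surrounded by genes that missed a single condition. Without the condition of 4-fold there would be 714 more genes. Without that on overlap there would be 20 more, without that on the flat range 53 more (41 had risen and 12 had fallen by 2 d prepartum), and 4 more without that on the level. Nearest outside the fold limit was NOD1, an intracellular sensor of bacterial peptidoglycan, at 3.94 times its level of 2 d prepartum. Just outside the upper limit of the flat range was RETREG1, a receptor for autophagy of the endoplasmic reticulum, at 1.53, and just outside the condition on overlap LIPG, an endothelial lipase, whose lowest postpartum value was 0.994 times its highest prepartum value. Below the level limit STRC reached 3.75 CPM, against 5.50 CPM for PLIN5 just inside it.

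Gene lists of related functions showed how far the other genes moved in +1vs-2, and 203 of their 246 genes stand in the study's own table of DEG, so that the share of DEG among them is not independent evidence. Over all tested genes 8.01% were called higher and 7.24% lower in this comparison. Of 224 list genes outside the set, 57 were called higher and 7 lower. Without replicate 34 (2 d prepartum) these counts were 35 and 2, without replicate 40 there were 3 called lower, without replicate 37 there were 11, and without TMM the counts were 35 and 12. In the list of acute phase, antimicrobial and complement proteins 9 of 13 were called higher and none lower, with a median log2 fold change of 1.47 against 0.02 over all genes. LCN2, which encodes the siderophore-binding lipocalin 2, had 13.7 ± 0.136 CPM at 2 d prepartum and 975 ± 867 CPM at 1 d postpartum (log2 fold change 6.15, SE 1.04, adjusted p = 0.00148 from edgeR). Its value in sow 1, 16.5 CPM, overlapped the prepartum libraries, and those of sows 2 and 3 were 1705 and 1205 CPM. CP (ceruloplasmin), LBP and SOD2, the mitochondrial superoxide dismutase, were the others with the strongest rise, at log2 fold changes of 4.39, 4.31 and 3.90. The means of CP and LBP were already higher at 2 d than at 14 d prepartum, going from 0.445 to 9.19 CPM and from 9.50 to 222 CPM, whereas SOD2 was in the flat range and overlapped the prepartum libraries through sow 1 (211, 3163 and 3495 CPM at 1 d postpartum).

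Of 18 other genes of lipopolysaccharide sensing and innate receptors, 5 were called higher and none lower. They were LBP, LY96 (log2 fold change 2.60, SE 0.48, adjusted p = 0.00260 from edgeR), TLR4, the NF-κB inhibitor NFKBIE and the kinase RIPK3. Among 16 other immediate-early and acute phase transcription factors 7 were called higher, led by FOS, CCN1, NFIL3 and STAT3 (log2 fold change 1.42, SE 0.20, adjusted p = 0.000508 from edgeR), and 9 did not pass. Of 17 other cytokines, chemokines and their receptors 3 were called higher, namely the chemokine-scavenging receptors ACKR4 and ACKR1 and the receptor IL17RB. Of 12 other genes of cholesterol synthesis 6 were called higher, HMGCS1, HSD17B7, MSMO1 and ACAT2 by the most. Protein folding and translocation at the endoplasmic reticulum had 8 of 19 called higher, with none of the 19 in the set, and the chaperone HSPA5 at 446 ± 98.3 CPM at 2 d prepartum and 1000.3 ± 352 CPM at 1 d postpartum. Interferon-stimulated genes had 5 of 19 called higher, with ETV7, GBP1, PARP14 and IFIT1 in front, and genes known to respond to hypoxia 3 of 14 (STC2, P4HA1 and EPAS1). Solute carriers had 4 of 30 called higher and SLC44A4 lower.

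**Figure D5:**
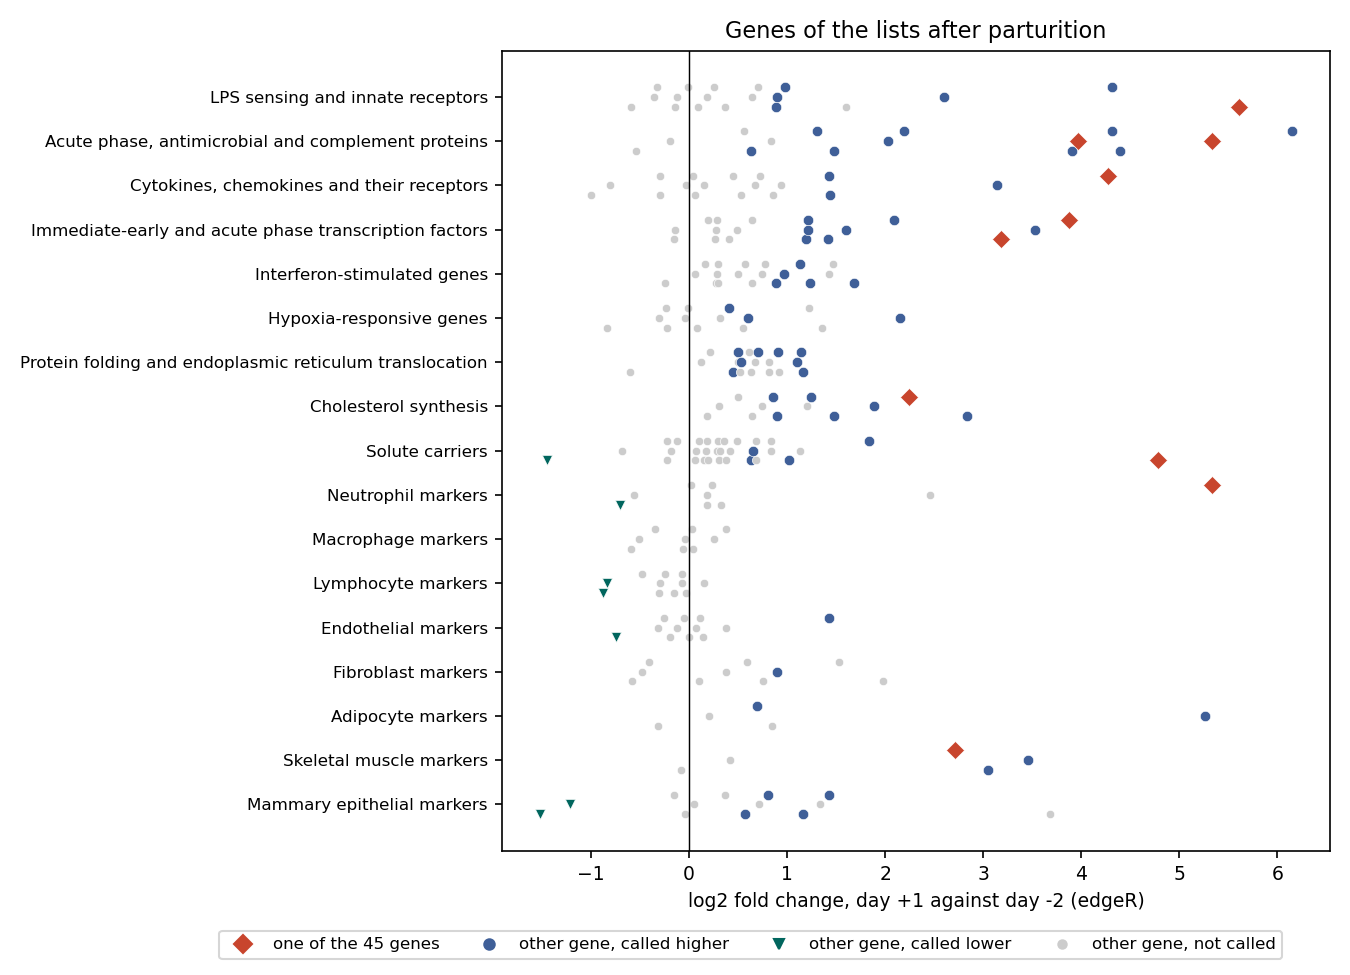
log2 fold change of day +1 against day -2 (edgeR, x axis) for each tested gene of the fixed lists (rows); diamonds are genes of the set, blue circles other genes called higher, triangles called lower, grey circles not called. Genes of the set lie at 2.24 (SQLE) to 5.61 (CD14), and some other genes lie further right than a gene of the set in the same row, such as LCN2 (6.15) and HMGCS1 (2.83).

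Of the 57 list genes called higher outside the set, 32 lay in the flat range before parturition. A mean at 2 d over 1.5 times that of 14 d prepartum was found in 21 and one below 0.67 times in 4, and 15 reached 4-fold in +1vs-2. Of all 1036 genes called higher outside the set, 764 lay in the flat range, 175 above it and 97 below it, and 125 reached 4-fold. Replicate 37 was the lowest postpartum library for 30 of the 57 (52.6%) and for 59.8% of all 1036 genes called higher outside the set.

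Markers of cell types that a biopsy can hold were set beside the innate genes. Of 8 neutrophil markers other than S100A9 none was called higher, NCF4 was called lower, and their summed level was 31.9 to 38.4 CPM at 2 d prepartum and 35.2, 86.4 and 42.0 CPM at 1 d postpartum. VNN2, named after its values were seen, had 10.9, 59.2 and 12.8 CPM in these 3 libraries. Its comparison passed (log2 fold change 2.46, SE 0.75, adjusted p = 0.0375 from edgeR), but its overall test of time did not, so that it was not called. The defining neutrophil genes S100A8 and MPO did not reach the level for testing, and CXCR2 was not linked to an identifier. None of 9 macrophage markers was called, and their sum was 344 to 380.1 CPM at 2 d prepartum and 297 to 344 CPM at 1 d postpartum. Of 11 lymphocyte markers 2 were called lower (LY9 and CD72), and their sum was 97.9 to 102 CPM at 2 d prepartum and 67.9 to 103 CPM at 1 d postpartum. Of 5 adipocyte markers CIDEA, which lactating epithelium also expresses, and PNPLA2 were called higher, and their summed level was 39.0 to 48.7 CPM at 2 d prepartum and 92.2 to 168 CPM at 1 d postpartum, with CIDEA at 122, 14.1 and 31.1 CPM. Endothelial markers had 1 of 12 called higher (ACKR1) and 1 lower (PLXND1) and fibroblast markers 1 of 10 higher (DDR2). The endothelial sum was 752 to 776 CPM at 2 d prepartum and 595 to 723 CPM at 1 d postpartum, and the fibroblast sum 3403 to 3841 and 1928 to 3733 CPM. Of the mammary epithelial markers 4 of 13 were called higher (KRT18, KRT8, TFAP2A and MAL2) and 2 lower (FOXA1 and TFAP2C). Their sum, most of it CSN2, was 70416, 100423 and 34229.6 CPM at 2 d prepartum and 286515, 23483 and 64509.5 CPM at 1 d postpartum, highest in sow 1 and lowest in sow 2, the reverse of C3, CD14 and MT1X. Its part in the differences between sows was not tested. The part of infiltrating cells in the values of CD14, S100A9 or CXCL2 was not tested.

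The 45 genes were scattered over the genome. C3 and ENSSSCG00000030385 were the sole pair closer than 1000000 bases, chromosome 6 held 6 of the genes and chromosomes 2, 4 and 9 held 5 each, and 7 lay on unplaced scaffolds (15.6%, against 7.38% of the other tested genes). Their median exon length was 1881 bases, and they had a median of 6 listed exons, against 2046 bases and 8 exons in the other tested genes. CEBPD, CD14, JUNB and ENSSSCG00000011289 have a single listed exon. VMP1, CXCL2, CHI3L2, MAP3K8 and ENSSSCG00000029322 overlap another listed gene on the same strand, and reads on the shared bases cannot be assigned with certainty.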

How the data were processed

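The authors deposited 1 gene count table per library, made with featureCounts (Subread 1.5.0) from STAR 2.5.1b alignments after FastQC 0.11.15, as the submitters' processing notes name them. The file headers give reverse-stranded counting over exons of an Ensembl annotation of Sscrofa10.2, without options for multi-mapping or multi-overlapping reads, while the methods name RefSeq. Counts were used as deposited. Genes at 1 CPM or more in at least 3 of 15 libraries (13503 of 25322) were scaled by TMM and tested with the quasi-likelihood test of edgeR 4.0.16 (R 4.3.3), with Benjamini-Hochberg adjustment over all of them. DESeq2 1.42.0 and limma 3.58.1 served as alternatives, and the steps were tested on simulated data. The edgeR p-values rest on the spread between libraries of the same time point, with a single estimate per gene shared by all 15 libraries. A wider spread at 1 d postpartum alone, as for LCN2, is therefore not treated apart, and the pairing by sow is left out.

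The set, the gene lists and the partner genes were chosen with earlier results of these data known. Genes of the set with a name are named, except 1 that is counted but not reported here, by the reference table first (29) and then by the study's supplementary table (3), which departs from the planned order. Values in every library are given for 19 of the 20 named genes with the highest mean at 1 d postpartum, for those on a list and for 2 unnamed genes. Per list, up to 4 called genes with the largest change are named. The sow came from the study's alignment summary, joined by total count. Deviations from the time point means correlated within a sow in all 30 pairs (mean 0.396, lowest 0.103), so that the sow pairs the libraries. The mean between sows (-0.198, 60 pairs) follows from this, since the deviations of a time point cancel out, and is no separate evidence. The sow entered alternatives.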

Additional observations from a re-analysis of the deposited data

How the results depend on the processing

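The number of genes meeting the conditions, 45, was 77 with a limit of 3-fold, 26 with 6-fold, 71 with a flat range widened to 0.5 to 2, 29 with a narrower range starting at 0.8, 30 without TMM and 30 with a filter of 1 CPM in all 15 libraries. Leaving out 1 library gave 39 to 90, the highest without replicate 37 of 1 d postpartum. Of the 45, 15 were kept whichever library was left out, 16 under all 3 other scalings and 8 under both, and LTBP2 and MAP3K8 were kept in 5 of the 15 runs that leave out a library. List genes called higher in +1vs-2 numbered 35 without TMM and 35 to 67 with 1 library left out, and those called lower 12 and 2 to 11. With the sow as a replicate block, these counts were 66 and 9, against 57 and 7, and DESeq2 gave 76 and 9. Before parturition 0 of the 45 genes were called under the alternatives run, which called no tested gene in 32 of 39 runs and at most 0.904% (DESeq2, -6vs-14). Genes of few reads, such as S100A9 and PLIN5, have wide counting intervals.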
